A study of Mus musculus with 6 samples.

Results

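miR-122, miR-1a, miR-133a, miR-133b and miR-206 are microRNAs (miRNAs) best known from liver and striated muscle, and here they were followed in small RNA libraries of mouse sperm. They were chosen by name, as every row of the deposited miRNA table that names mmu-miR-122, mmu-miR-1a, mmu-miR-133a, mmu-miR-133b or mmu-miR-206 in any arm or copy. The 5 names were themselves picked on the read counts of these same samples, in which single samples stood far above the rest, so all levels and group differences below are a description and are no support for one. The rule found 6 of 778 rows, and none of them was a combined row. Mature sperm was taken at 8 weeks of age from male C57BL/6 mice, out of the cauda epididymis, where sperm is stored before ejaculation. There were 3 samples from mice with a depressed state induced by stress (stress samples) and 3 samples from normal mice (normal samples). The labels used here do not say which stress was applied or for how long, nor whether a sample is 1 animal or a pool. Any p-value below therefore rests on the spread among 3 samples a group, and that spread may be technical.

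miRNAs are short RNAs that guide Argonaute proteins to target transcripts, mainly through the seed, bases 2 to 8 from the 5′ end. miR-122 is the dominant miRNA of hepatocytes, where it sustains cholesterol and lipid metabolism. miR-1 and miR-133 are made together from shared primary transcripts in heart and skeletal muscle, and act on muscle differentiation and proliferation. miR-206 is a skeletal muscle relative of miR-1 that lies beside miR-133b.

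The mature sequences of the muscle miRNAs were compared with each other. They are printed from RefSeq (GRCm38.p6) for the pair on chromosome 1, with the seed in capitals, and both equal the sequence in the deposited table. miR-206-3p lies at chr1:20679055-20679076 and miR-133b-3p at chr1:20682834-20682855, both on the plus strand.
mmu-miR-206-3p: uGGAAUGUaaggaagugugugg
mmu-miR-133b-3p: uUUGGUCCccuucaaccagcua
Of the 6 rows, 2 had a sequence that could be printed. miR-1a-3p has the same seed as miR-206-3p, shares its first 10 bases and differs from it at 4 of 22 positions. miR-133a-3p has the same seed as miR-133b-3p, shares its first 21 bases and differs at 1 position. No other row among the 778 carried either seed, and no other row carried the seed of miR-122-5p. In the table, counts ending in 0.5 stood in the miR-1a-3p and miR-206-3p rows in the same 3 samples, and in the miR-133a-3p and miR-133b-3p rows together in stress replicate 3. Single values of these 2 pairs are uncertain to the extent that reads were divided between them.

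The hairpins of the same pair show which arm was counted. They are printed with the 3p arm in capitals.
Mir206: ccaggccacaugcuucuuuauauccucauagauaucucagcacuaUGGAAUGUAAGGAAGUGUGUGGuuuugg
Mir133b: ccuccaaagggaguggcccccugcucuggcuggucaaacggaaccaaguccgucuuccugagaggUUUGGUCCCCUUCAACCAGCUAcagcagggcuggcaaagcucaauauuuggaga
Of both hairpins, only the 3p arm has a row in the table used here. Mir206 and Mir133b are separated by 3686 bases, and both overlap an exon of the long noncoding RNA Gm28653 on the same strand (GENCODE M21).

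The miRNA table held 1010203 to 1522849 reads in the stress samples and 1083237 to 3067208 reads in the normal samples. Between 442 and 567 rows had a read in a sample. The labelled cell type was checked against miRNAs of male germ cells, such as miR-34c and miR-881. Their 27 rows took 0.711% to 0.865% of the miRNA reads in stress samples and 0.677% to 0.883% in normal samples. Epithelial miRNAs, made by the lining of the epididymis among other tissues, took 2.95% to 3.24% in stress samples and 1.25% to 1.77% in normal samples. These are shares of the miRNA total, and in the scaled fit described below 0 of 9 tested epithelial rows were called. All 6 libraries thus held miRNAs of male germ cells together with miRNAs known from other cells.

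miR-122-5p stood at a high level in 1 normal sample and was lower in all 3 stress samples than in any normal sample after scaling. It had 148, 53 and 47 reads in stress replicates 1 to 3, against 287, 1837 and 328 reads in normal replicates 1 to 3. Scaled by TMM, a factor per sample that aligns the bulk of the miRNAs, these are 109.9, 28.0 and 33.8 CPM (counts per 1000000 reads) in the stress samples and 343, 2418 and 124.5 CPM in the normal samples. Normal replicate 2 was 7.04-fold above normal replicate 1, the next highest sample, and stress replicate 1 lay just below normal replicate 3. As a plain share of the miRNA reads the groups overlapped, since stress replicate 1 stood at 0.0142% (95% exact binomial interval 0.0120% to 0.0166%) and normal replicate 3 at 0.0107% (0.00957% to 0.0119%). These intervals cover counting error only. In bulk RNA of this kind, fewer cells that carry a miRNA and less of it per cell cannot be told apart.

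miR-1a-3p, the abundant miRNA of heart and skeletal muscle, had its excess in a stress sample. It had 4709.5, 541 and 363 reads in stress replicates 1 to 3, against 127, 373.5 and 338.5 reads in normal replicates 1 to 3. These counts correspond to 3496, 286 and 261 CPM in the stress samples and 152, 492 and 128.5 CPM in the normal samples. Stress replicate 1 was 7.11-fold above normal replicate 2, the next highest of all samples, and 12.8-fold above the median of the other stress samples. The other stress samples lay within the range of the normal samples on this scale. miR-1a-3p took 0.450% of all miRNA reads in stress replicate 1 (0.438% to 0.463%), where it ranked 24 among the 778 rows. In the other samples it ranked between 61 and 98.

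miR-206-3p, the skeletal muscle relative of miR-1, was spread over a wide range within both groups. It had 76.5, 10 and 14 reads in stress replicates 1 to 3, against 106, 244.5 and 22.5 reads in normal replicates 1 to 3. Scaled, the stress samples were at 56.8, 5.29 and 10.1 CPM and the normal samples at 127, 322 and 8.54 CPM. The groups overlapped, with normal replicate 3 between stress replicates 2 and 3. Its highest sample was normal replicate 2, the sample in which miR-122-5p was also highest, and its highest stress sample was stress replicate 1, the sample of the miR-1a-3p excess. Whether reads of miR-1a-3p were counted as miR-206-3p in that sample was not tested.

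miR-133a-3p, made from the same primary transcripts as miR-1a, was far rarer. It had 42, 12 and 10.5 reads in stress replicates 1 to 3, against 4, 3 and 12 reads in normal replicates 1 to 3. These are 31.2, 6.35 and 7.56 CPM in the stress samples and 4.79, 3.95 and 4.56 CPM in the normal samples. All 3 stress samples were above all 3 normal samples, and stress replicate 1 was 4.13-fold above the next sample. Among the rows that passed the filter on low counts, which miR-133a-3p did not, 19.1% were likewise higher in stress without overlap. The counts are small, so that 12 reads are a share of 0.000788% in stress replicate 2 (0.000407% to 0.00138%) and a share of 0.000391% in normal replicate 3 (0.000202% to 0.000683%).

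The other 2 rows were at the limit of detection. miR-133b-3p, the neighbour of miR-206, had 2, 1 and 0.5 reads in stress replicates 1 to 3 and 0 reads in all normal samples. A count of 0 allows up to 3 reads, which is 1.14 to 3.95 CPM in the normal samples, so no difference was detectable at this depth. miR-133a-5p, the other arm of the miR-133a hairpin, had 2 reads in normal replicate 2 and 0 in every other sample.

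**Figure D1:**
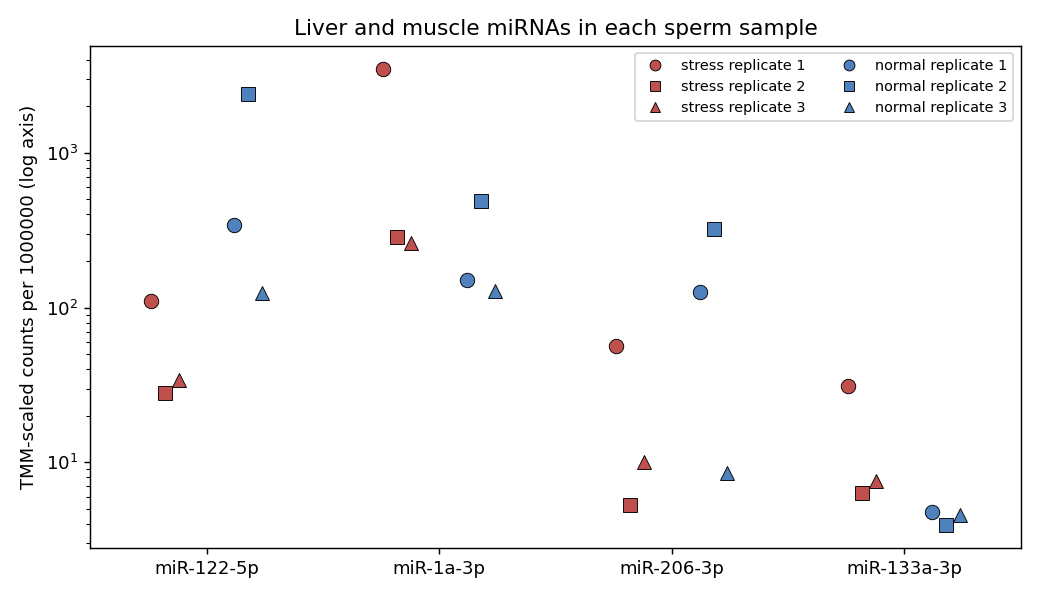
TMM-scaled counts per 1000000 (log axis) of the 4 rows with more than 3 reads in a sample, with 1 point per sample and the stress samples left of the normal samples. miR-122-5p peaks in normal replicate 2 at 2418 CPM, and miR-1a-3p peaks in stress replicate 1 at 3496 CPM.

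A comparison of the members with each other inside a sample needs no scaling between samples. Of all reads of the 6 rows, miR-1a-3p gave 94.6%, 87.7% and 83.4% in stress replicates 1 to 3, against 24.2%, 15.2% and 48.3% in normal replicates 1 to 3. miR-122-5p gave 2.97%, 8.59% and 10.8% in the stress samples, against 54.8%, 74.7% and 46.8% in the normal samples. Neither share overlapped between the groups, but both are parts of the same total and are not separate results. Among all tested rows, the scaled values of 20.8% were lower and of 19.1% were higher in stress without overlap. How often shares or ratios of other rows separate the groups was not tested. There were 31.8, 10.2 and 7.72 reads of miR-1a-3p per read of miR-122-5p in the stress samples, against 0.443, 0.203 and 1.03 in the normal samples. The same order stood in stress replicates 2 and 3 and in normal replicates 1 and 3, outside the samples with the 2 highest values. As the names were picked on these counts, this describes the samples and is no support for a group difference.

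**Figure D2:**
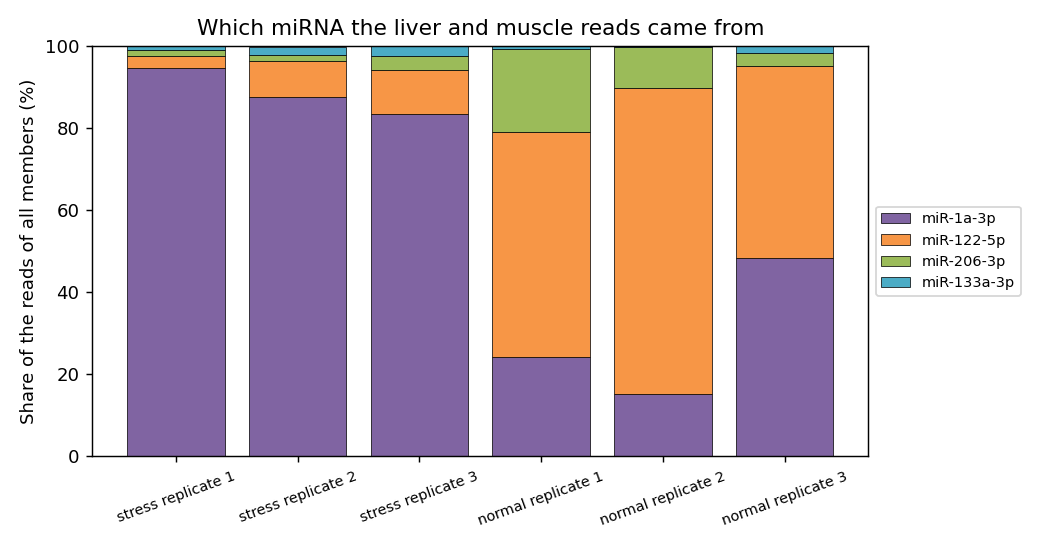
Share of the reads of all 6 rows (percent, 1 bar per sample) that came from miR-1a-3p, miR-122-5p, miR-206-3p and miR-133a-3p; the remaining 2 rows, at 0.162% or less in any sample, are not drawn. miR-1a-3p fills 83.4% or more of each stress bar and 48.3% or less of each normal bar.

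The ratio of miR-1a-3p to its transcript partner overlapped between the groups. There were 112, 45.1 and 34.6 reads of miR-1a-3p per read of miR-133a-3p in stress replicates 1 to 3, against 31.8, 124.5 and 28.2 in normal replicates 1 to 3. The highest ratios, in stress replicate 1 and normal replicate 2, stood in samples of different groups, and the one in normal replicate 2 rests on 3 reads of miR-133a-3p. Against miR-206-3p, there were 61.6, 54.1 and 25.9 reads of miR-1a-3p per read in the stress samples and 1.20, 1.53 and 15.0 in the normal samples. These did not overlap, and how often ratios of other rows do so was not tested. miR-122-5p gave 1.93, 5.30 and 3.36 reads per read of miR-206-3p in the stress samples and 2.71, 7.51 and 14.6 in the normal samples, with overlap.

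The hairpins of the muscle members lie in pairs. Mir1a-1 (chr2:180389048-180389124) and Mir133a-2 (chr2:180398379-180398482) are 9254 bases apart on the plus strand, with no other GENCODE M21 gene over either. A further pair, Mir133a-1 and Mir1a-2, is 2504 bases apart on chromosome 18, in an intron of Mir133a-1hg and opposite to an intron of Mib1. Mir122 is on chromosome 18 as well, in an exon of a long intergenic noncoding RNA. The table has 1 row for the mature arm from both copies, so the copies cannot be told apart.

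Single-sample excess was rare in this table. Of 236 rows that passed the filter on low counts, 4 (1.69%) had a highest sample at least 3 times the second highest, and miR-1a-3p and miR-122-5p had the 2 largest such ratios. The median ratio over the 236 rows was 1.17 and the 95th percentile 1.97. miR-206-3p, at 2.54, ranked 7. The remaining rows past 3, named after their values were seen, were miR-574-5p and miR-486a-3p, both highest in normal replicate 1. miR-133a-3p did not pass the filter and is not counted among them. In the SD of log2 CPM within a group, miR-1a-3p ranked 1 and miR-206-3p ranked 2 among the stress samples, while miR-206-3p ranked 1 and miR-122-5p ranked 2 among the normal samples.

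**Figure D3:**
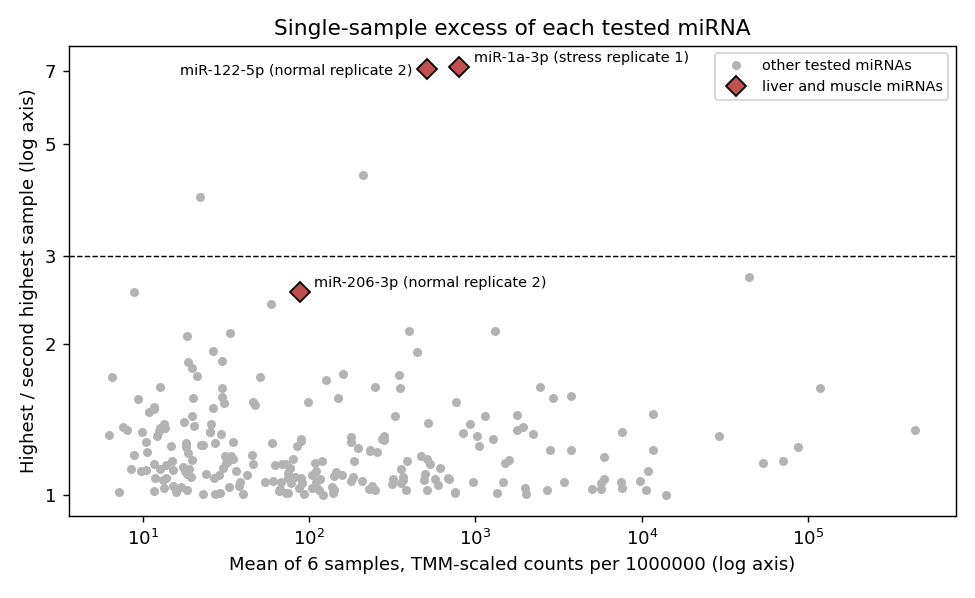
Ratio of the highest to the second highest sample (log axis) against the mean of the 6 samples in TMM-scaled counts per 1000000 (log axis), with 1 point for each of the 236 tested miRNAs and the sample of the excess in brackets. miR-1a-3p at 7.11 and miR-122-5p at 7.04 lie above all other points, and the dashed line marks a ratio of 3.

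The samples with the excess were not raised in many other miRNAs to a like degree. In stress replicate 1, the non-member rows that stood highest over their next sample were miR-15b-5p (1.73-fold), miR-677-5p (1.72-fold), miR-671-5p (1.64-fold), miR-194-5p (1.56-fold) and miR-199b-5p (1.49-fold). In normal replicate 2, they were miR-409-3p (2.07-fold), miR-127-3p (1.92-fold), miR-200a-5p (1.74-fold), miR-129-5p (1.72-fold) and miR-878-5p (1.69-fold). miR-194-5p is a miRNA of liver, gut and kidney, and miR-409-3p and miR-127-3p come from the Dlk1-Dio3 imprinted cluster.

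Other tissue miRNAs were set beside the excess. Other muscle and heart miRNAs (miR-378a, miR-486a, miR-486b, miR-499) took 0.102%, 0.0651% and 0.0653% of the reads in stress replicates 1 to 3, against 0.105%, 0.107% and 0.0475% in normal replicates 1 to 3. No row of the heart miRNAs miR-208a or miR-208b stands in the table used here, and miR-499-5p, a miRNA of slow muscle and heart named after its values were seen, had at most 3 reads in a sample. Of the 3 tested rows of this list, 0 were called in either direction (median log2 fold change −1.47, against 0.00063 over all tested rows). That median is the value of the combined row of miR-486a-5p and miR-486b-5p. miR-486a-3p was at −1.76 and miR-378a-3p, named after its values were seen, at 0.12. Other liver, gut and kidney miRNAs (miR-192, miR-194, miR-215, miR-375) took 0.592% to 0.697% in stress samples and 0.533% to 0.582% in normal samples, and 0 of 3 tested rows were called (median −0.12). The most abundant row of that list, miR-375-3p, was at 4846, 5072 and 3917 CPM in the stress samples and 7230.2, 7639 and 5629 CPM in the normal samples. miR-192-5p, which hepatocytes also make and which was named after its values were seen, was at 523, 475 and 359.9 CPM in the stress samples and 281, 654 and 545 CPM in the normal samples. On this scale both were highest in normal replicate 2, the sample of the miR-122-5p excess, at 1.06-fold and 1.20-fold over the next sample. The remaining tested row of the list, miR-194-5p, was lowest in that sample, at 6.58 CPM against 16.6 to 36.4 CPM in the others. The rarer rows miR-215-5p and miR-194-2-3p, named after their values were seen, were not highest there either. As a share of the miRNA reads, the summed list was instead highest in stress replicate 1 (0.697%), with normal replicate 2 at 0.567%. Neither list had its summed level raised in 1 sample as the members had. The sums follow their most abundant rows, so a rise confined to a rarer row need not show in them. For example, miR-486a-3p of the muscle list was 3.93-fold above its next sample in normal replicate 1.

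Red blood cell miRNAs (miR-451a, miR-144, miR-486a, miR-486b) took 0.0817%, 0.0465% and 0.0268% in stress replicates 1 to 3, against 0.102%, 0.0872% and 0.0341% in normal replicates 1 to 3. In this sum, as with miR-206-3p, stress replicate 1 was the highest stress sample, and normal replicates 1 and 2 were above normal replicate 3. The sum follows the row of miR-486a-5p and miR-486b-5p (mean 596 CPM, against 78.1 CPM for miR-451a), which muscle also makes. miR-451a, named after its values were seen, was highest in stress replicate 2, with 115, 225 and 19 reads in stress replicates 1 to 3. It had 94, 59 and 159 reads in normal replicates 1 to 3 and a log2 fold change of −0.18. Of 3 tested red blood cell rows, 0 were called (median −1.47). This median is again the value of the combined miR-486 row, which stands in both lists, so the 2 medians are not separate results. Smooth muscle and stromal miRNAs took 0.892% to 1.05% in stress samples and 0.248% to 0.480% in normal samples, with 2 of 7 tested rows higher and 0 lower (median 0.49). Endothelial miRNAs took 0.0364% to 0.0417% in stress samples and 0.0109% to 0.0201% in normal samples, and the 1 tested row was not called. Leukocyte miRNAs took 0.135% to 0.189% in stress samples and 0.0360% to 0.0814% in normal samples, with 0 of 5 tested rows called (median 0.87). Of 9 tested epithelial rows 0 were called (median 0.44), of 18 tested germ cell rows 3 were lower (median −0.24), and of 3 tested neural rows 1 was lower (median −0.34). The percentages are shares of the miRNA total, while the calls and medians come from the TMM-scaled fit. In that fit, 24 of all 236 tested rows (10.2%) were called lower in stress and 6 were called higher. Scaled to the miRNA total, 96 of all 236 tested rows were called higher in stress and 10 lower, so higher shares in stress were common across the table. The part of blood or of other cells in the members' levels was not tested.

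**Figure D4:**
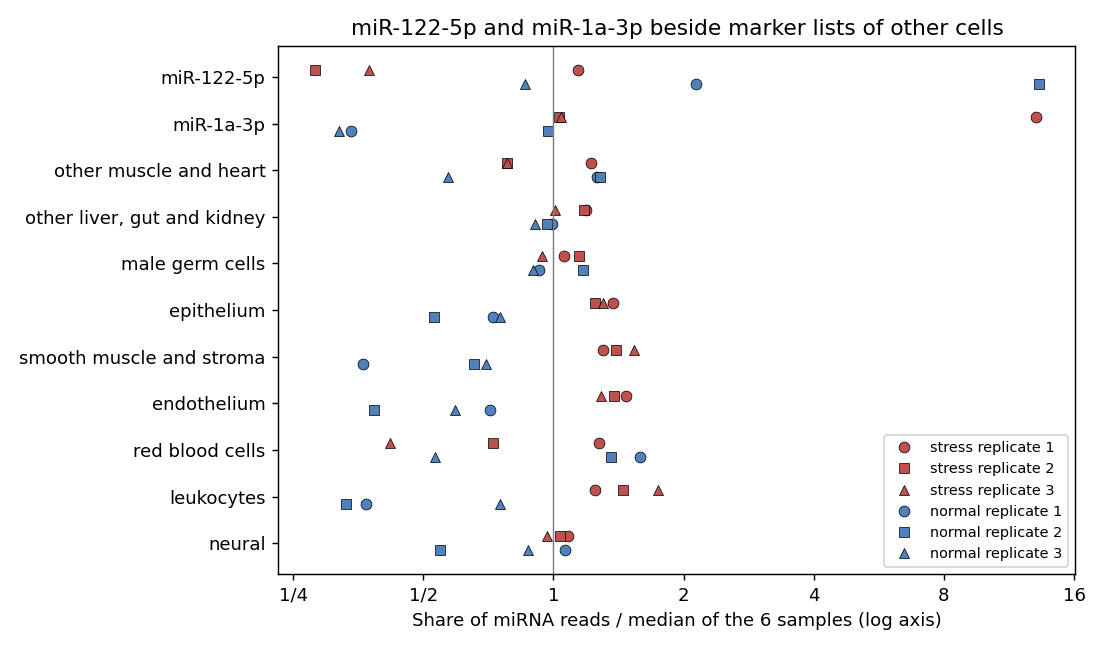
Share of the miRNA reads divided by the median of the 6 samples (log axis), for miR-122-5p, miR-1a-3p and 9 marker lists, with 1 point per sample. In miR-122-5p, normal replicate 2 (0.165% of the reads) and in miR-1a-3p, stress replicate 1 (0.450%) lie far right of the other samples, and no list has such a point.

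Stress was compared with normal in a fit across all tested rows (edgeR quasi-likelihood test, Benjamini-Hochberg adjusted over 236 rows). In that fit 30 of 236 rows (12.7%) had an adjusted p below 0.05, 24 of them lower in stress (10.2%) and 6 higher. Of the 3 members that passed the filter, 1 was called, and it was lower. miR-122-5p averaged 57.2 ± 45.7 CPM in stress samples and 962 ± 1266 CPM in normal samples (SD, n = 3 each), with a log2 fold change of −4.07 ± 0.99 (SE) and an edgeR adjusted p of 0.022. It was also 1 of the 20.8% of tested rows whose scaled values did not overlap and were lower in stress. Because these counts were in view when the names were picked, the call is given as a description. Without normal replicate 2 the log2 fold change of miR-122-5p was −2.01 ± 0.64 and the edgeR adjusted p was 0.094. A robust edgeR fit, which handles rows of extreme spread apart, gave the same fold change with an adjusted p of 0.15.

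miR-1a-3p averaged 1348 ± 1861 CPM in stress samples and 257 ± 203.2 CPM in normal samples (SD, n = 3 each). Its log2 fold change was 2.40 ± 0.93 (SE), which did not pass (edgeR adjusted p = 0.11). Without stress replicate 1 it was 0.15 ± 0.48 (edgeR adjusted p = 0.87), so that the group difference rested on that sample. The call also turned on the other stress samples: without stress replicate 2 it was 2.86 (edgeR adjusted p = 0.041), and without stress replicate 3 it was 2.90 (edgeR adjusted p = 0.021). Scaled to the miRNA total, where the other 2 stress samples lie just above all normal samples, it was 3.22 ± 0.93 (edgeR adjusted p = 0.020).

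miR-206-3p averaged 24.1 ± 28.5 CPM in stress samples and 152 ± 158 CPM in normal samples (SD, n = 3 each). Its log2 fold change of −2.67 ± 1.07 (SE) did not pass (edgeR adjusted p = 0.12). It was −4.24 without stress replicate 1 (edgeR adjusted p = 0.0059) and −3.23 without normal replicate 3 (edgeR adjusted p = 0.020), and both pass the threshold. Without normal replicate 2 it was −1.43 (edgeR adjusted p = 0.42).

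**Figure D5:**
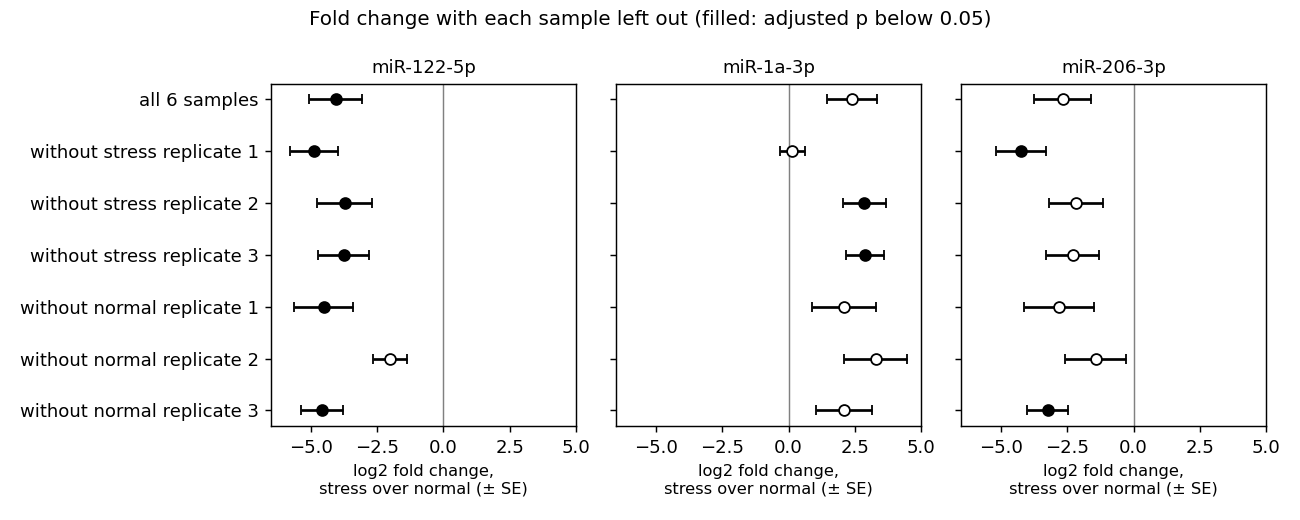
Log2 fold change, stress over normal, with its SE (bars) for the 3 tested members, with all samples and with each sample left out in turn; filled points have an adjusted p below 0.05. miR-122-5p ranges from −4.88 to −2.01, miR-1a-3p from 0.15 to 3.29 and miR-206-3p from −4.24 to −1.43.

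The number of calls over the whole table differed with and without the members. With the 6 rows left out of the table, edgeR called 32 lower and 16 higher of 233 tested rows, against 24 lower and 6 higher of 236 with them. With miR-1a-3p and miR-206-3p counted as 1 feature it called 32 lower and 15 higher. Leaving out or joining rows changes the estimate of the spread, the scaling and the number of tests together, and their parts in the difference were not tested.

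Patterns like those of the members were ranked by Pearson's r of log2 CPM over the 6 samples, as a description. The points share libraries and the difference between the groups. Closest to miR-122-5p were miR-878-5p (0.957), miR-871-3p (0.951), let-7i-5p (0.940), miR-541-5p (0.938) and miR-1843b-3p (0.938). Closest to miR-206-3p were miR-541-5p (0.939), the combined row of miR-486a-5p and miR-486b-5p (0.933), miR-409-3p (0.926), miR-122-5p (0.903) and miR-7a-5p (0.900). miR-486, which muscle and red blood cells both make, was at 529, 249.7 and 168 CPM in the stress samples and 1124, 1181 and 322 CPM in the normal samples, with normal replicate 3 below stress replicate 1. Closest to miR-1a-3p were miR-741-3p (0.803), let-7j (0.790), miR-872-5p (0.760), miR-15b-5p (0.743) and miR-677-5p (0.702), so no tested row followed it as closely as others followed miR-122-5p. Between members, on log2(CPM + 1), miR-122-5p and miR-206-3p had r = 0.904 and miR-1a-3p and miR-133a-3p had r = 0.878, while miR-122-5p and miR-1a-3p had r = 0.050. Stress replicate 1 was highest in both miR-1a-3p (3496 CPM) and miR-133a-3p (31.2 CPM). In the other samples miR-133a-3p, which did not pass the filter, was at 3.95 to 7.56 CPM. It was lowest in normal replicate 2, where miR-1a-3p was second highest (492 CPM). How far r = 0.878 rests on stress replicate 1 was not tested.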

How the data were processed

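Small RNA of cauda epididymal sperm was measured in 3 stress and 3 normal samples, grouped by sample title. The members, lists and tests were chosen with earlier results of these data known. TRIzol was the extraction reagent and an Illumina TruSeq RNA kit made the libraries, per the labels' protocols. Bowtie was used, per the submitters' processing notes; the sources used here give neither its version nor the genome build or counting rule. In the miRNA table the authors deposited expected counts, with fractions where reads appear to be divided among miRNAs. The piRNA and tRNA fragment tables hold no member and were not used.

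The quasi-likelihood test of edgeR 4.0.16 (R 4.3.3) was run on rounded counts (minimum count of 10 in filterByExpr, TMM scaling, glmQLFit and glmQLFTest, Benjamini-Hochberg threshold 0.05, two-sided). The SE is the log2 fold change divided by the square root of F. CPM values use the unrounded counts. The steps were checked on simulated data without single-sample excess, so the check does not cover rows of that kind. Alternatives were RLE, the miRNA total, other filters, DESeq2 1.42.0, a robust fit, a replicate block, rows joined or left out, and samples left out. The closest samples differed by a chi-square of 48.4 per degree of freedom, so no column copies another. Named rows are all members, the 5 closest patterns of each tested member, the 5 non-members highest over their next sample in each sample with an excess of at least 3-fold and at least 10 reads, and the most abundant rows of the liver, gut and kidney list and of the muscle list; exceptions are named as such. One read was worth 0.529 to 0.742 CPM in stress and 0.380 to 1.32 CPM in normal samples.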

Additional observations from a re-analysis of the deposited data

How the results depend on the processing

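The sign of the fold change held for each tested member in every alternative that gave it a row of its own, while several calls did not; where nothing else is said, the cause was not tested. For miR-122-5p the call was lost with a replicate block (log2 fold change −3.07), with a robust fit (−4.07, adjusted p = 0.15) and without both normal replicate 2 and stress replicate 1 (−2.87, adjusted p = 0.056). The replicate numbers are shared only as names: same-numbered samples deviated together at r = 0.11, −0.21 and 0.12, 1 of 3 stress and 1 of 3 normal samples lay closest to the sample of their own number, and with the block 21 miRNAs were lower and 7 higher. miR-1a-3p passed when scaled to the miRNA total (3.22), and it and miR-206-3p passed without a filter on low counts (2.40 and −2.64), where the SE shrank to 0.31 and 0.39. DESeq2 gave miR-1a-3p no p-value (NA) and miR-122-5p −3.99 (adjusted p = 0.011). Joined with miR-206-3p, miR-1a-3p was at 1.74, and the table without the members gives them no value. Leaving out 1 sample gave −4.88 to −2.01 for miR-122-5p, 0.15 to 3.29 for miR-1a-3p and −4.24 to −1.43 for miR-206-3p.

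The 24 lower and 6 higher miRNAs became 10 and 96 with the miRNA total, 2 and 1 without both samples of the excess (a fit of fewer samples), and the higher count became 16 with RLE, 19 without a filter, 17 with DESeq2, 16 with a robust fit, 15 with miR-1a-3p and miR-206-3p joined and 16 without the members. With 1 sample left out there were 13 to 33 lower and 4 to 22 higher. The ratio of the highest to the second highest sample was 12.5 for miR-1a-3p with the miRNA total. With 1 sample left out it ranged from 1.72 to 12.2 for miR-1a-3p, 2.76 to 19.4 for miR-122-5p, 2.23 to 5.67 for miR-206-3p and 1.19 to 4.91 for miR-133a-3p. The summed share of the members averaged 0.187% in stress and 0.0974% in normal samples, and 0.0418% without stress replicate 1 and 0.0356% without normal replicate 2. With miR-148a-3p out of the total it was 0.305% in stress and 0.186% in normal samples. Summing several rows of 1 member arm was not run, since no arm has more than 1 row. The robust, joined and left-out fits were chosen after seeing the data.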
